A study of Mus musculus with 70 samples.

Results

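Hepatocytes make glucose for the blood by 2 routes, new synthesis from lactate and amino acids and the breakdown of stored glycogen, and 9 genes of these routes were followed here in sorted mouse hepatocytes. All 9 were found by symbol, with 1 row each, among the 21859 genes of the deposited expression table, and all 9 passed the filter on low values. They are Pck1, Fbp1, G6pc and Slc37a4 of gluconeogenesis, Tat of amino acid breakdown, Gys2 and Pygl of glycogen synthesis and breakdown, and Ppp1r3b and Ppp1r3c, which bring protein phosphatase 1 to glycogen.

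The study profiled RNA from liver, colon and embryonic fibroblasts in 70 libraries, of which 23 came from livers and form 9 groups. The mice were C57BL/6 males carrying caMEK1, which activates ERK and stands for oncogene-induced senescence, or caMKK6, which activates p38 and stands for stress-induced senescence, or were controls. They were double-coloured chimeras, so that mCherry-positive cells and the GFP-positive cells around them could be sorted from the same liver. Mice given doxycycline drank it for 7 days at 0.2 mg/mL for caMEK1 and 2 mg/mL for caMKK6 and controls, in water with 10 mg/mL sucrose. The mCherry cells are called primary senescent cells in the labels. Each genotype had 3 untreated GFP libraries. On doxycycline, caMEK1 had 3 animals and caMKK6 and control had 2 each, and every one of these 7 animals gave 1 mCherry and 1 GFP library. The liver libraries thus came from 16 animals. The promoters that drive the transgenes, the age of the mice and whether untreated mice drank sucrose are not given in the sources used here, so doxycycline and sucrose cannot be told apart. The dose also differs between caMEK1 and the other genotypes, and it cannot be told apart from the kinase.

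Gluconeogenesis turns oxaloacetate into phosphoenolpyruvate through Pck1, then removes phosphates from fructose 1,6-bisphosphate through Fbp1 and from glucose 6-phosphate through the catalytic subunit G6pc, which works with the transporter Slc37a4 in the endoplasmic reticulum. Glucagon acting through cAMP, and glucocorticoids, raise Pck1, G6pc and Tat in fasting, and insulin lowers Pck1 and G6pc. Gys2 builds liver glycogen, Pygl breaks it down, and Ppp1r3b and Ppp1r3c direct the phosphatase that activates synthesis and stops breakdown.

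In GRCm38 with GENCODE M21 the gluconeogenic genes are Pck1 (ENSMUSG00000027513.11) at chr2:173153048-173159273 (+ strand), Fbp1 (ENSMUSG00000069805.10) at chr13:62864753-62888282 (- strand), G6pc (ENSMUSG00000078650.2) at chr11:101367561-101377903 (+ strand) and Slc37a4 (ENSMUSG00000032114.9) at chr9:44396852-44402968 (+ strand). The aminotransferase gene is Tat (ENSMUSG00000001670.13) at chr8:109990437-109999803 (+ strand). The glycogen genes are Gys2 (ENSMUSG00000030244.7) at chr6:142422613-142473109 (- strand), Pygl (ENSMUSG00000021069.17) at chr12:70190811-70231488 (- strand), Ppp1r3b (ENSMUSG00000046794.9) at chr8:35375739-35388139 (+ strand) and Ppp1r3c (ENSMUSG00000067279.3) at chr19:36731731-36736653 (- strand).

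The sequence before the start of 4 members is shown: Pck1 and Tat, which were high under caMKK6, and G6pc and Pygl, which were low under caMEK1. Pygl was lower under caMKK6 too, and Pck1 was called under caMKK6 only in GFP cells. RefSeq windows of GRCm38.p6, from 250 bases before to 50 bases after the RefSeq start, were found for 7 of the 9 members, all except Gys2 and Ppp1r3b. The windows lie at chr2:173152823-173153122 (+ strand) for Pck1, chr8:109990186-109990485 (+ strand) for Tat, chr11:101367466-101367765 (+ strand) for G6pc and chr12:70227634-70227933 (- strand) for Pygl. They are given 5′ to 3′ on the strand of the gene. The Pygl window lies wholly inside the GENCODE gene given above, away from its GENCODE start. For G6pc and Pck1 the RefSeq start also lies inside the GENCODE gene. Capitals mark matches, on either strand, to the CRE core ACGTCA, the forkhead core TGTTTNC, the glucocorticoid receptor half-site AGAACA or the TATA box TATAAA; no motif overlaps another in these windows.
Pck1: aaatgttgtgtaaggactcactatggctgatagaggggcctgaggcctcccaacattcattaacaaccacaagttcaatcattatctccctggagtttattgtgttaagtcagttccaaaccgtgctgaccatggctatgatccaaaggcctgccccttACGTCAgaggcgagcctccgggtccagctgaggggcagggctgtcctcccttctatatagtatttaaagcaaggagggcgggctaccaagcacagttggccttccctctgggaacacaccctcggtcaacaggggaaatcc
Tat: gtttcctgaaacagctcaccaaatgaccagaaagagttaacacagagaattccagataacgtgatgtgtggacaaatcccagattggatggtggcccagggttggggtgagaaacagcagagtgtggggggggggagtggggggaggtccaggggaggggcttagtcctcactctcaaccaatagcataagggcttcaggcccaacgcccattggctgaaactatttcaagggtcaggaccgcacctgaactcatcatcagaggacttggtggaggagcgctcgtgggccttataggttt
G6pc: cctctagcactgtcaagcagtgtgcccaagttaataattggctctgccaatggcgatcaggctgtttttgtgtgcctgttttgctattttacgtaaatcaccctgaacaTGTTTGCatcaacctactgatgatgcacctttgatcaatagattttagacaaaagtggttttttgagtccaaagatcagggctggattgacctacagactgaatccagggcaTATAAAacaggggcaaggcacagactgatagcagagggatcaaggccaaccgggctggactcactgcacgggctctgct
Pygl: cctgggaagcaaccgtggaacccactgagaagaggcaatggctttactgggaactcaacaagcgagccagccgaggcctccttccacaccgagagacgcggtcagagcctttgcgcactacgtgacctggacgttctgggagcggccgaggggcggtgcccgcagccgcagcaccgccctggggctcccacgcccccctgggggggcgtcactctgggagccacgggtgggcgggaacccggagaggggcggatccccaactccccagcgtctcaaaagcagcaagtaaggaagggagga

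The Pck1 window holds 1 CRE core that begins at -91, counted from the RefSeq start, and the G6pc window holds 1 forkhead core at -141 and 1 TATA box at -29. The Tat and Pygl windows hold no match to these letters. Among all 32851 windows of the same length, 7.5% hold the CRE core, 20.5% the forkhead core, 19.0% the half-site and 13.6% the TATA box. The Pygl window is 67.0% G and C and the G6pc window 46.7%, against a median of 52.7% over all windows. A match describes letters and is not evidence of binding.

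Libraries held 9267318 to 14534256 reads in genes, and levels are FPKM, which are read numbers scaled by transcript length and library size. Changes are log2 differences of FPKM + 1 from limma, with Benjamini-Hochberg adjusted p-values over 10371 genes, and a gene is called at an adjusted p below 0.05. The 11 measured hepatocyte markers were at 1 FPKM or more in every library. The transgenes matched the labels: the xenopusMEK1 row read 5.55 to 14.1 FPKM in caMEK1 mCherry cells and 0.133 to 0.238 in their GFP neighbours, and the humanMKK6 row read 216 and 1211 FPKM in caMKK6 mCherry cells and 1.51 and 30.9 in their GFP neighbours. Control GFP cells on doxycycline held 678 and 749.6 FPKM of mCherry RNA, and caMEK1 mCherry cells only 4.24 to 12.2. The pair of caMKK6 animals on doxycycline stood apart from each other, so results on caMKK6 are also given without each. The GFP library of caMEK1 replicate 3 had the highest Kupffer cell marker sum, 759 FPKM against 71.2 in the lowest library of its group. Neutrophil markers summed to 13.8 to 72.2 FPKM in caMEK1 GFP cells on doxycycline and to at most 0.120 FPKM in untreated caMEK1 cells. In this comparison 6 of 6 tested neutrophil genes and 4 of 12 Kupffer cell genes were called higher, beside 6.46% of all genes. In caMEK1 mCherry cells the neutrophil sum was 4.37 to 27.8 FPKM against 1.29 to 1.62 in control mCherry cells, with 4 of 6 genes called higher. The cholangiocyte sum was 27.8 to 114 FPKM against 9.05 to 13.5, with 2 of 3 tested genes called higher. Of all genes 10.7% were called higher there. Lymphocyte markers summed to at most 2.04 FPKM in any library. The part of these cells in the results below was not tested. In sorted bulk RNA, fewer cells expressing a gene and less RNA per cell cannot be told apart.

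**Figure D1:**
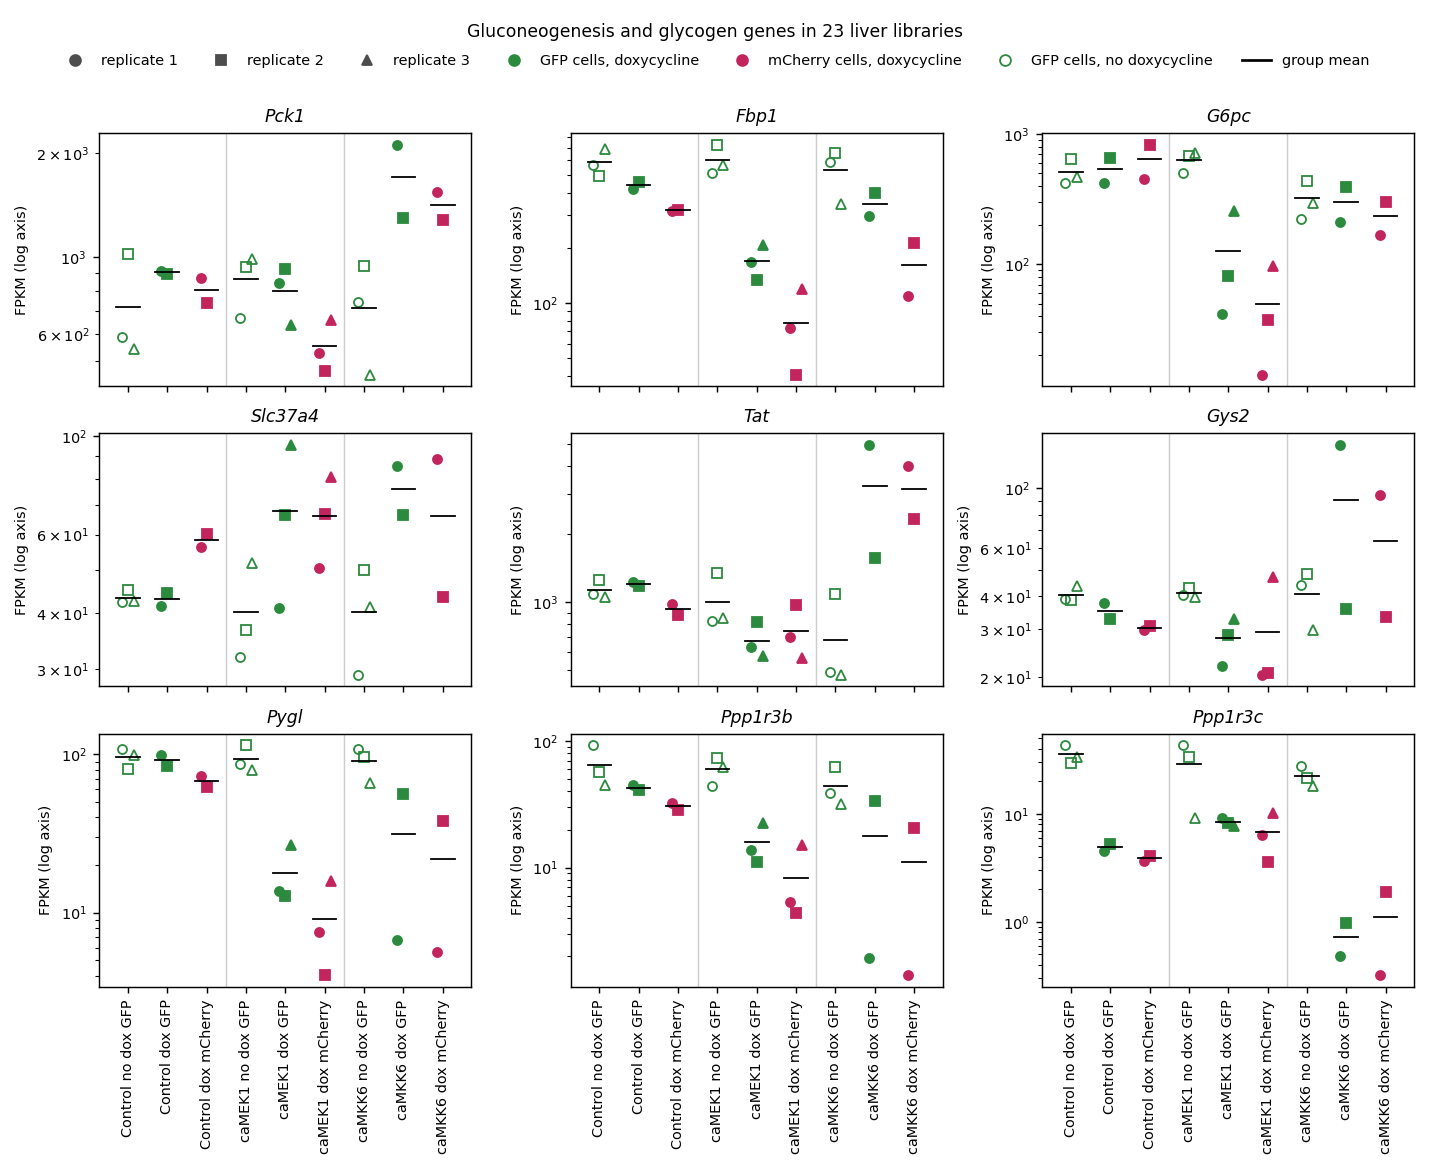
FPKM (log axis) of the 9 genes in the 23 liver libraries, by group. Each point is a library, green for GFP and red for mCherry cells, open for untreated mice, with its replicate number as the shape and a bar at the group mean. Pygl stays under 27 FPKM in all 6 caMEK1 libraries on doxycycline, and Tat reaches 4979 FPKM under caMKK6.

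Under caMEK1, G6pc, Fbp1 and Pygl were lower in both sorted populations. G6pc, the enzyme that frees glucose, read 14.2, 37.5 and 96.9 FPKM in caMEK1 mCherry cells, against 452 and 834 in control mCherry cells. In the GFP cells of the same caMEK1 livers it read 41.8, 81.8 and 258 FPKM, against 504, 679.9 and 712 in untreated caMEK1 cells. Neither pair of groups overlapped. The log2 difference was -4.00 ± 0.68 (SE; adjusted p = 0.00035) in mCherry cells and -2.69 ± 0.61 (adjusted p = 0.0025) in GFP cells. These calls held in every alternative and with every library left out in turn.

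Fbp1, which removes a phosphate from fructose 1,6-bisphosphate, read 73.2, 40.6 and 120 FPKM in caMEK1 mCherry cells and 317 and 323 in control mCherry cells. It read 167, 134 and 208 FPKM in caMEK1 GFP cells on doxycycline and 512, 731 and 569 in untreated ones. All caMEK1 libraries on doxycycline were below all of their comparators. Fbp1 was lower by -2.16 ± 0.38 on the log2 scale in mCherry cells (adjusted p = 0.00049) and by -1.83 ± 0.34 in GFP cells (adjusted p = 0.00064), and both calls held in every alternative.

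Pygl, the liver glycogen phosphorylase, read 7.55, 4.02 and 15.7 FPKM in caMEK1 mCherry cells and 73.4 and 62.3 in control mCherry cells. In GFP cells it read 13.6, 12.7 and 26.7 FPKM on doxycycline and 87.2, 114 and 79.3 without. The groups did not overlap in either population. The differences were -2.94 ± 0.70 (adjusted p = 0.0050) and -2.40 ± 0.63 (adjusted p = 0.0067). Without control mCherry replicate 1 the first was -2.82 with an adjusted p of 0.051, and under quantile normalization the second was -1.63 with an adjusted p of 0.082.

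Ppp1r3b, which targets the phosphatase to glycogen in liver, read 5.37, 4.35 and 15.2 FPKM in caMEK1 mCherry cells against 32.2 and 28.7 in control mCherry cells. It read 13.6, 11.1 and 22.6 FPKM in caMEK1 GFP cells on doxycycline against 44.1, 74.0 and 62.1 in untreated ones. The groups did not overlap, yet neither difference passed the test: -1.94 ± 0.84 (adjusted p = 0.099) and -1.89 ± 0.75 (adjusted p = 0.056). Against untreated caMEK1 GFP cells instead of control mCherry cells, Ppp1r3b in mCherry cells was lower by -2.86 with an adjusted p of 0.0060.

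Pck1, the entry enzyme, gave no call under caMEK1. It read 529, 469 and 658 FPKM in caMEK1 mCherry cells and 873 and 739.6 in control mCherry cells, a difference of -0.55 (95% interval -1.24 to 0.13, adjusted p = 0.23). In GFP cells it was 842, 922 and 639 FPKM on doxycycline and 669, 936 and 985 without, with an interval of -0.71 to 0.51. All 3 caMEK1 mCherry libraries were below both control mCherry libraries, and the GFP groups overlapped. The difference between Pck1 and G6pc in their response was not tested.

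Slc37a4, Tat and Gys2 also gave no call under caMEK1. Slc37a4, the glucose 6-phosphate transporter that serves G6pc, read 50.6, 66.6 and 80.8 FPKM in mCherry cells and 41.0, 66.5 and 95.5 in GFP cells, where the difference from untreated cells was 0.68 (adjusted p = 0.081). That difference was 0.98 (adjusted p = 0.019) after scaling libraries to a common median, 1.42 (adjusted p = 0.0045) under quantile normalization and 1.00 (adjusted p = 0.018) without GFP replicate 1. Tat, the aminotransferase that starts tyrosine breakdown, ranged from 566 to 974 FPKM in the 6 caMEK1 libraries on doxycycline, with differences of -0.35 and -0.56. Gys2, glycogen synthase, ranged from 20.3 to 47.1 FPKM there, with differences of -0.15 and -0.56.

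Counted over the list, 3 of the 9 genes were called in caMEK1 mCherry cells against control mCherry cells, all lower, where 27.1% of all genes tested were called and 16.3% were called lower. In caMEK1 GFP cells against untreated cells 4 of the 9 were called, all lower, where 38.5% of all genes were called, 32% lower and 6.46% higher. The medians over the 9 genes were -0.55 and -1.43, beside -0.04 and -0.25 over all genes. The groups did not overlap for 5 members in mCherry cells, against 57.8% of all genes, and for 7 in GFP cells, against 50.4%. Without caMEK1 replicate 3 in both colours, 3 and 4 members were called, and the share of all genes in that fit is not reported here.

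**Figure D2:**
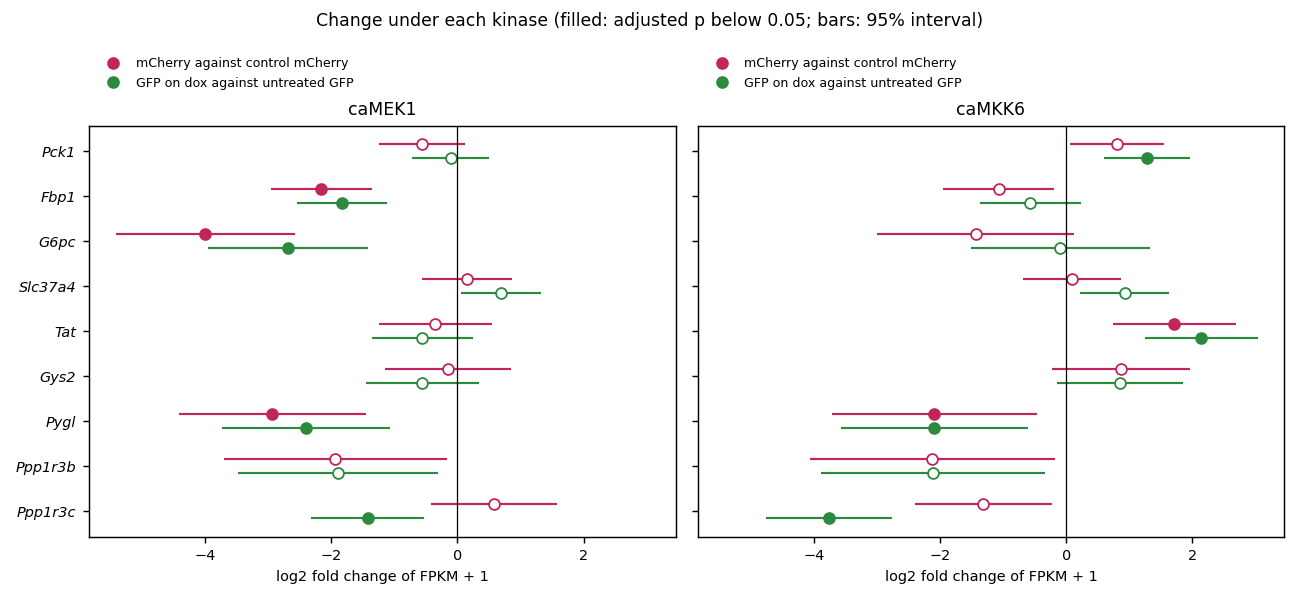
Log2 fold change of FPKM + 1 with its 95% interval for each gene, under caMEK1 (left) and caMKK6 (right), in mCherry cells against control mCherry cells (red) and in GFP cells on doxycycline against untreated GFP cells (green). Filled points passed an adjusted p of 0.05. G6pc, Fbp1 and Pygl are filled and to the left of 0 under caMEK1 in both populations, and Tat is filled and to the right of 0 under caMKK6 in both.

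Under caMKK6, Tat and Pck1 were high. Tat read 4026 and 2327 FPKM in caMKK6 mCherry cells and 985 and 881 in control mCherry cells. In GFP cells it read 4979 and 1569 FPKM on doxycycline and 489, 1083 and 477 without. All 4 caMKK6 libraries on doxycycline were above every other liver library, and replicate 1 was the higher animal in both colours. The differences were 1.72 ± 0.46 (adjusted p = 0.0093) and 2.14 ± 0.42 (adjusted p = 0.0036). The first had an adjusted p of 0.051 after median scaling, which moved the median of all genes in this comparison from 0.25 to -0.02. It was 1.63 (adjusted p = 0.066) without control mCherry replicate 2 and 1.32 (adjusted p = 0.098) without caMKK6 mCherry replicate 1. The second was 1.31 (adjusted p = 0.14) without caMKK6 GFP replicate 1 and 1.22 (adjusted p = 0.081) against control GFP cells on doxycycline.

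Pck1 read 2116 and 1299 FPKM in caMKK6 GFP cells on doxycycline and 742, 943 and 457 in untreated ones, a difference of 1.28 ± 0.32 (adjusted p = 0.013). It read 1542 and 1284 FPKM in caMKK6 mCherry cells, and the difference of 0.81 from control mCherry cells did not pass (interval 0.06 to 1.56, adjusted p = 0.079). The 4 caMKK6 libraries on doxycycline were the 4 highest of the 23. The GFP call was lost without caMKK6 GFP replicate 1 (0.92, adjusted p = 0.24) and against control GFP cells on doxycycline (0.87, adjusted p = 0.098).

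G6pc gave no call under caMKK6. It read 169 and 303 FPKM in mCherry cells, a difference of -1.44 from control mCherry cells (interval -3.00 to 0.12), and 212 and 396 FPKM in GFP cells, within the untreated range of 224 to 441 except for replicate 1. Fbp1 read 109 and 212 FPKM in mCherry cells, below both control mCherry libraries, with a difference of -1.07 (adjusted p = 0.051). It read 297 and 398 FPKM in GFP cells, which overlapped with untreated cells at 347 to 659.

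The glycogen genes of the caMKK6 animals split by animal. Pygl read 5.65 FPKM in mCherry cells and 6.74 in GFP cells of replicate 1, and 38.1 and 56.0 in replicate 2, against 62.3 to 73.4 in control mCherry cells and 66.2 to 108 in untreated caMKK6 cells. Both differences were -2.09 (adjusted p = 0.041 and 0.046). Without replicate 1 in both colours, a choice made after seeing the data, they were -0.81 (adjusted p = 0.26) and -0.65 (adjusted p = 0.49). The mCherry call was also lost without either control mCherry library (-1.97 and -2.21, adjusted p = 0.14 and 0.12). The GFP call was also lost without untreated replicate 1 or 2 (-1.95 and -2.03, adjusted p = 0.12 and 0.11).

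Ppp1r3b showed the same division, with 1.41 and 1.94 FPKM in replicate 1 and 20.5 and 33.5 in replicate 2, for mCherry and GFP cells in turn. Its differences of -2.12 and -2.11 missed the threshold (adjusted p = 0.076 and 0.085). Without replicate 2, which leaves 1 library in each caMKK6 group on doxycycline, they were -3.70 and -3.89. Leaving it out in both colours was also a choice made after seeing the data. Gys2 was 94.8 and 145 FPKM in replicate 1 and 33.4 and 35.8 in replicate 2, where untreated caMKK6 cells read 29.8 to 48.0. Its differences were 0.87 and 0.85 with no call, and with 1 library a group, without replicate 2, they were 1.61 and 1.84. Slc37a4 was 88.6 and 85.6 FPKM in replicate 1 and 43.4 and 66.5 in replicate 2. It was not called in the mCherry cells (0.09) or in the GFP cells (0.93, adjusted p = 0.062). The latter passed after median scaling (1.01, adjusted p = 0.039) and under quantile normalization (1.31, adjusted p = 0.023). Without replicate 2 in both colours it was 1.11.

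In caMKK6 mCherry cells against control mCherry cells 2 of the 9 genes were called, Tat higher and Pygl lower, where 38.2% of all genes were called, 28.9% higher and 9.29% lower. In caMKK6 GFP cells against untreated cells 4 were called, where 19% of all genes were called. Of these Pck1 and Tat were higher (5.21% of all genes) and Pygl and Ppp1r3c lower (13.8%). With 1 caMKK6 animal left out, each caMKK6 group on doxycycline holds 1 library, so counts of calls are not given here. They enter only the ranges over left-out libraries given further below. The groups did not overlap for 8 members in mCherry cells, against 68.9% of all genes, and for 5 in GFP cells, against 39.6%. The medians over the 9 genes were -1.07 and -0.09, beside 0.25 and -0.07 over all genes.

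Ppp1r3c was the member that was low on doxycycline even without a kinase. It read 43.3, 29.8 and 33.7 FPKM in untreated control cells, 4.55 and 5.25 in control GFP cells on doxycycline and 3.64 and 4.10 in control mCherry cells. All 4 control libraries on doxycycline were below all 3 untreated ones. The GFP difference was -2.62 ± 0.47 (adjusted p = 0.038), and Ppp1r3c was 1 of only 9 genes called in this comparison, 0.0868% of those tested. The call was not stable: the adjusted p was 0.053 without the filter or under quantile normalization, 0.095 with voom on recovered reads, 0.12 with a pseudocount of 0.1, and between 0.11 and 0.51 when any of the 5 libraries was left out, although the difference stayed between -2.47 and -2.85. The other 8 called genes were Slc37a1, Tifa, Tnfaip3, Ppp1r14a and Ifi202b, which were higher, and Corin, Cyp2c55 and Cyp3a59, which were lower.

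Under caMKK6, Ppp1r3c read 0.321 and 1.91 FPKM in mCherry cells and 0.480 and 0.968 in GFP cells, against 27.9, 21.4 and 18.3 in untreated caMKK6 cells. The GFP difference from untreated cells was -3.77 ± 0.47 (adjusted p = 7.8e-05) and held in every alternative. The difference of mCherry cells from control mCherry cells was -1.31 (adjusted p = 0.054). At these levels the change on the FPKM + 1 scale understates the ratio, and with a pseudocount of 0.1 that difference was -2.11 (adjusted p = 0.020). It passed also after median scaling (-1.56) and under quantile normalization (-1.45). Without caMKK6 mCherry replicate 2, which leaves 1 library in that group, it was -1.88.

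Under caMEK1, Ppp1r3c read 6.42, 3.56 and 10.3 FPKM in mCherry cells and 9.17, 8.22 and 7.72 in GFP cells, against 43.5, 33.7 and 9.27 in untreated caMEK1 cells. The GFP difference from untreated cells was -1.43 ± 0.42 (adjusted p = 0.014). Against control GFP cells on doxycycline it had the opposite sign, 0.67, with no call (adjusted p = 0.28). These comparators differ in genotype as well as in doxycycline, and the part of each was not tested. The call against untreated cells was lost without untreated replicate 1 (-1.01, adjusted p = 0.087) or 2 (-1.19, adjusted p = 0.067). It was also lost after median scaling (-1.16, adjusted p = 0.062) and under quantile normalization (-0.89, adjusted p = 0.13). The difference of mCherry cells from control mCherry cells was 0.58 with no call, and against untreated caMEK1 GFP cells it was called in the other direction (-1.79, adjusted p = 0.0029).

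The other 8 members gave no call for doxycycline alone, with differences from -0.52 to 0.39. The groups did not overlap for 3 of the 9, against 37.7% of all genes. For the mCherry cells against GFP cells of control livers limma called 0 of the 9 genes, with 0 at an unadjusted p below 0.05 and 0 by voom, where 0.106% of all genes were called. The levels did not overlap for 8 of the 9, but neither did those of 72.1% of all genes.

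Within each liver on doxycycline, mCherry cells can be set against the GFP cells beside them. Fbp1, Pygl and Ppp1r3b were lower in mCherry cells than in GFP cells of the same animal in 7 of 7 animals, controls included. Pck1 and Gys2 were lower in 6 of 7, G6pc and Ppp1r3c in 5, Tat in 4 and Slc37a4 in 2. For G6pc the exceptions were both controls. The median of all genes in control livers was -0.25, so lower was the common direction there. The share of all genes lower in all 7 animals is not reported here. In caMEK1 livers Fbp1 was lower by -1.22 ± 0.34 (adjusted p = 0.048), the only member called, where 4.71% of all genes were called, 0.955% lower and 3.75% higher. It was also the only member whose groups did not overlap, as for 20% of all genes. With the animal as a block, which the shared livers warrant, 12.3% of all genes were called, 5.45% lower and 6.87% higher, and 4 members were called in caMEK1, all lower: Fbp1 (adjusted p = 0.0058), G6pc (-1.33 ± 0.12, adjusted p = 0.00076), Pygl (-0.98 ± 0.16, adjusted p = 0.0075) and Ppp1r3b (-0.98 ± 0.16, adjusted p = 0.0074). Without the block the Fbp1 call was lost when any of 5 of the 6 libraries was left out, with values from -0.83 to -1.38; only without mCherry replicate 3 did 2 members pass.

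In caMKK6 livers limma called 0 of the 9 without the block, with 1 at an unadjusted p below 0.05 and 0 by voom, where 4.28% of all genes were called, 3.99% higher and 0.289% lower. With the block 9.2% of all genes were called, 2.51% lower, and Fbp1 was the only member called (-1.17 ± 0.22, adjusted p = 0.019). It was also the one member whose groups did not overlap, as for 36.4% of all genes. The colour difference of caMEK1 minus that of control was called for 0 members without the block (5.36% of all genes, 5.11% higher and 0.251% lower; 0 at an unadjusted p below 0.05 and 0 by voom) and for G6pc with it (-1.54 ± 0.19, adjusted p = 0.0090), where 13.9% of all genes were called, 2.52% lower. For caMKK6 minus control it was called for 0 members with or without the block (19.2% of all genes with the block; 9.75% without it, 9.54% higher and 0.212% lower; 0 members at an unadjusted p below 0.05 and 0 by voom). The difference of GFP cells on doxycycline from untreated ones, minus that in controls, was called for 0 members by limma and by voom, both for caMEK1 (9.79% of all genes, 1.04% higher and 8.75% lower; 3 members at an unadjusted p below 0.05) and for caMKK6 (1.16%, 0.27% higher and 0.887% lower; 1 member at an unadjusted p below 0.05). The values for caMEK1 were -2.76 ± 0.91 for G6pc (adjusted p = 0.061), -1.44 ± 0.51 for Fbp1 (adjusted p = 0.079) and -2.34 ± 0.94 for Pygl (adjusted p = 0.12).

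**Figure D3:**
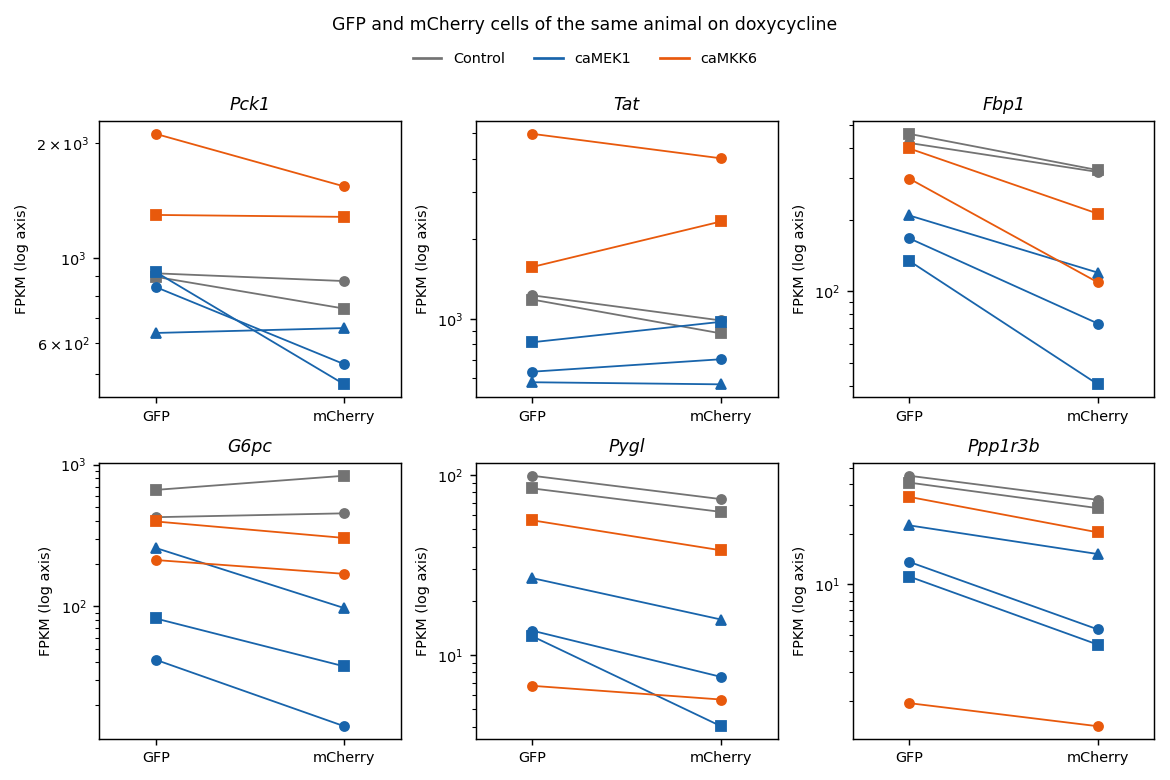
FPKM (log axis) of 6 genes in GFP and mCherry cells; each line joins both libraries of an animal on doxycycline, coloured by genotype, with the replicate number as the shape. Lines of Fbp1, Pygl and Ppp1r3b go down in all 7 animals, and the replicate 1 caMKK6 animal lies far below replicate 2 for Pygl and Ppp1r3b.

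Levels in mCherry cells differed directly between caMEK1 and caMKK6 livers for 5 of the 9 genes, where 31.7% of all genes were called. Groups did not overlap for Pck1, G6pc, Tat and Ppp1r3c, 4 of the 9, against 47.9% of all genes. In caMEK1 mCherry cells Pck1 (-1.36 ± 0.32, adjusted p = 0.0047), Fbp1 (-1.09 ± 0.38, adjusted p = 0.037), G6pc (-2.56 ± 0.68, adjusted p = 0.0089) and Tat (-2.07 ± 0.42, adjusted p = 0.0018) were lower than in caMKK6 mCherry cells, and 27.2% of all genes were. Ppp1r3c was higher (1.89 ± 0.47, adjusted p = 0.0065), as were 4.52% of all genes. The median of all genes was -0.31 and went to 0.00 after median scaling, under which the split of all calls went from 469 higher and 2823 lower to 842 and 793. Then Pck1 (-0.93, adjusted p = 0.086) and Fbp1 (-0.65, adjusted p = 0.30) were no longer called. The Fbp1 call was also lost without caMEK1 mCherry replicate 1 (-1.11, adjusted p = 0.078) or 2 (-0.69, adjusted p = 0.14) and without caMKK6 mCherry replicate 2 (-0.61, adjusted p = 0.35). The G6pc call was lost without caMKK6 mCherry replicate 2 (-2.14, adjusted p = 0.080) and the Ppp1r3c call without replicate 1 (1.32, adjusted p = 0.096). The Tat call held throughout.

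In GFP cells on doxycycline, Tat was lower (-2.06 ± 0.42, adjusted p = 0.015) and Ppp1r3c higher (2.45 ± 0.47, adjusted p = 0.011) in caMEK1 than in caMKK6 livers, 2 of the 9 genes where 3.6% of all genes were called, 2.83% lower and 0.762% higher. Groups did not overlap for 5 of the 9, against 25.5% of all genes. Tat lost its call without caMEK1 GFP replicate 1 (-2.03, adjusted p = 0.051) or caMKK6 GFP replicate 1 (-1.23, adjusted p = 0.19), and Ppp1r3c without the latter (2.25, adjusted p = 0.097). Without caMKK6 GFP replicate 2 that group holds 1 library, so no count is given here. With all libraries Pck1 was lower by -1.07 with an adjusted p of 0.070.

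Ordered by mean level, the caMKK6 doxycycline groups ranked first and second of 9 for Pck1 (1708 ± 578 FPKM in GFP cells and 1413 ± 182 in mCherry cells; SD, n = 2 each) and for Tat (3274 ± 2411 and 3176 ± 1201). These neighbours overlapped, and neither overlapped the next group, control GFP cells on doxycycline. For Fbp1, G6pc, Pygl and Ppp1r3b the caMEK1 mCherry group ranked last, at 77.9 ± 39.8, 49.5 ± 42.6, 9.10 ± 6.01 and 8.31 ± 6.00 FPKM (SD, n = 3), and each overlapped its neighbour in rank. For Ppp1r3c the untreated groups held the 3 highest ranks and the caMKK6 doxycycline groups last. For Gys2 and Slc37a4 the top group was caMKK6 GFP cells on doxycycline, at 90.5 ± 77.3 and 76.0 ± 13.5 FPKM, and it overlapped the next.

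Over the 23 libraries, which share animals and fall into 9 groups, 2 blocks of members varied together on the log2(FPKM + 1) scale. Pearson r was 0.95 between Pygl and Ppp1r3b, 0.91 between Fbp1 and Pygl and 0.84 between Fbp1 and G6pc. In the other block r was 0.80 between Pck1 and Tat, 0.69 between Tat and Gys2 and 0.67 between Pck1 and Gys2. Across blocks it was 0.25 between Pck1 and G6pc, though both encode gluconeogenic enzymes, and -0.41 between Tat and Ppp1r3b. Among all genes tested the nearest in pattern to Pygl were Pecr, Pbld2 and Suox (0.99 each) and to Fbp1 Gnmt, Urah and Ndrg2 (0.97 to 0.98). The nearest to Tat were Marveld3, Mapkapk2 and Klf3 (0.91 each) and to Pck1 Slc25a47 (0.87), Hspb8 (0.86) and Cebpb (0.81). To G6pc they were Mbl2, Atrnl1 and Man1a (0.93 to 0.95).

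**Figure D4:**
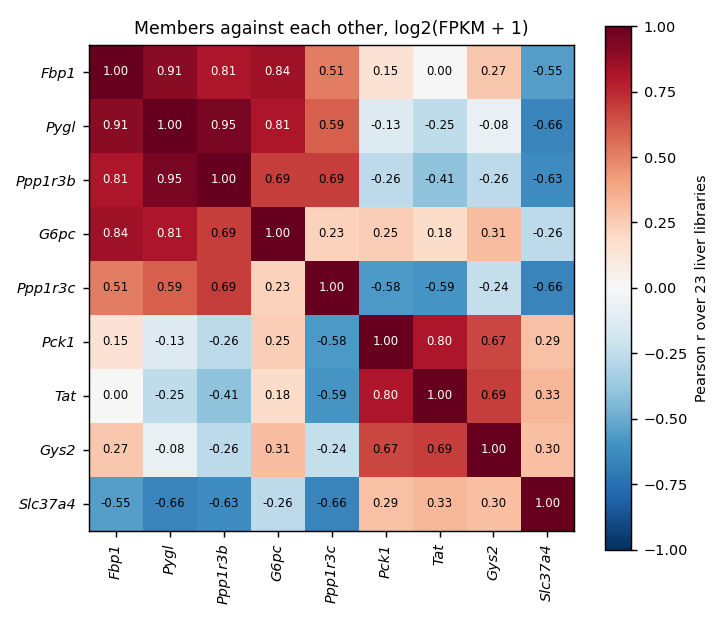
Pearson r between the 9 genes over the 23 liver libraries on the log2(FPKM + 1) scale, red for positive and blue for negative values. Fbp1, Pygl, Ppp1r3b and G6pc form a block with r from 0.69 to 0.95, and Pck1, Tat and Gys2 form another with r from 0.67 to 0.80.

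The other genes of the pathway are described by 2 lists of 22 tested genes each. Of the 22 genes of gluconeogenesis and glucose handling, 0 were higher and 1 was lower in caMEK1 mCherry cells: Mdh1, cytosolic malate dehydrogenase, at -1.52 ± 0.37 (adjusted p = 0.0052). Of the 22 glycogen genes 2 were higher and 5 lower, beside 10.7% and 16.3% of all genes. The lower ones included Stbd1, a glycogen-binding protein (-1.68 ± 0.34, adjusted p = 0.0015), Gbe1, the branching enzyme, at 4.28 FPKM against 11.9 (adjusted p = 0.026), and Ppp1r3g, another phosphatase-targeting subunit, at 0.617 FPKM against 11.5 (-3.01 ± 0.78, adjusted p = 0.0082). Mdh1 lost its call under quantile normalization (-0.84, adjusted p = 0.090) and Ppp1r3g with voom (adjusted p = 0.052). In caMEK1 GFP cells 0 of 22 gluconeogenesis genes were higher and 6 lower, and 2 of 22 glycogen genes were higher and 10 lower, beside 6.46% and 32% of all genes. Under quantile normalization these became 2 higher and 0 lower, and 2 and 2, where 1071 and 1391 of all 10371 genes were called higher and lower.

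Under caMKK6, 5 of the 22 gluconeogenesis genes were higher and 2 lower in mCherry cells, where 28.9% of all genes were called higher and 9.29% lower, so the count is no larger than the background. Among those higher were Sdsl, related to serine dehydratase (3.26 ± 0.64, adjusted p = 0.0013), and Gpt2, alanine aminotransferase (1.69 ± 0.46, adjusted p = 0.0093). In GFP cells 4 were higher and 1 lower, beside 5.21% and 13.8% of all genes, including Got1, cytosolic aspartate aminotransferase, at 719.8 FPKM against 117 (2.23 ± 0.62, adjusted p = 0.020), and Sds, serine dehydratase, at 344 FPKM against 111 (adjusted p = 0.027). Median scaling changed the mCherry counts to 2 higher and 3 lower, where 1173 and 1805 of all 10371 genes were called higher and lower. Mdh1, lower under caMEK1, was also called lower in caMKK6 mCherry cells (-1.33 ± 0.40, adjusted p = 0.016) and in caMKK6 GFP cells (-1.37). Both calls were lost under quantile normalization (-1.06 and -0.89, adjusted p = 0.053 and 0.097). Of the 22 glycogen genes 5 were higher and 1 lower in mCherry cells, against the same 28.9% and 9.29% of all genes, among them both glycogen synthase kinase genes, Gsk3a (1.00 ± 0.23, adjusted p = 0.0040) and Gsk3b (0.90 ± 0.16, adjusted p = 0.00075), which kept their calls in all 9 other settings; after median scaling the counts were 4 and 4. Ppp1r3g, which was low under caMEK1, was higher in caMKK6 GFP cells at 38.2 FPKM against 3.57 (3.36 ± 0.78, adjusted p = 0.0078), while caMKK6 mCherry cells held 11.5 FPKM and control mCherry cells 11.5. The Ppp1r3g level in GFP cells on doxycycline was lower in caMEK1 than in caMKK6 livers (-4.25 ± 0.78, adjusted p = 0.0071). Without caMKK6 replicate 1 in both colours, Ppp1r3g (3.00, adjusted p = 0.12), Got1 (0.95, adjusted p = 0.27) and Sds (0.67, adjusted p = 0.29) were not called in GFP cells. Against control GFP cells on doxycycline, the Ppp1r3g difference was 1.38 (adjusted p = 0.28) and the Got1 difference 1.83 (adjusted p = 0.075).

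Among 26 hormone receptors and regulators of gluconeogenesis, 1 was higher and 5 lower in caMEK1 mCherry cells, beside 10.7% and 16.3% of all genes. Gcgr, the glucagon receptor, read 23.5 FPKM against 67.0 (-1.50 ± 0.22, adjusted p = 0.00010), and Creb3l3, a liver transcription factor of fasting, read 30.2 against 92.6 (-1.61 ± 0.19). In caMKK6 mCherry cells 10 were higher and 1 lower, beside 28.9% and 9.29% of all genes. Those higher included Crtc2, a coactivator of CREB (1.35 ± 0.34, adjusted p = 0.0066), Hnf4a (1.46 ± 0.43, adjusted p = 0.014) and the coactivator Ppargc1a (1.40 ± 0.47, adjusted p = 0.029), and Creb3l3 was the lower one (-1.35 ± 0.20). After median scaling 2 were higher and 5 lower, where 1173 and 1805 of all 10371 genes were. Hnf4a (1.05, adjusted p = 0.076) and Ppargc1a (1.07, adjusted p = 0.10) were then not called. Without caMKK6 replicate 1 in both colours Ppargc1a was at 0.46 (adjusted p = 0.26). In GFP cells 0 were higher and 9 lower under caMEK1, where 6.46% and 32% of all genes were, and 5 higher and 6 lower under caMKK6, where 5.21% and 13.8% were. In the latter Igfbp1, a liver gene raised in fasting, read 3447 FPKM against 92.9 (4.55 ± 0.89, adjusted p = 0.0034). It was not called without caMKK6 replicate 1 in both colours (2.97, adjusted p = 0.099) or against control GFP cells on doxycycline (1.61, adjusted p = 0.27).

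Of 12 glucocorticoid response genes 5 were higher and 1 lower in caMEK1 mCherry cells, where 10.7% of all genes were called higher, and 7 were higher and 0 lower in caMKK6 mCherry cells, where 28.9% were. In GFP cells 7 were higher and 0 lower under each kinase, where 6.46% of all genes were called higher under caMEK1 and 5.21% under caMKK6. The lower gene was Gadd45g, a growth arrest gene, in caMEK1 mCherry cells (-2.55 ± 0.76, adjusted p = 0.019). Gadd45g lost its call under quantile normalization (-2.18, adjusted p = 0.052) and against untreated caMEK1 GFP cells (-0.86, adjusted p = 0.35). Fkbp5, a chaperone induced by glucocorticoids, read 46.3 FPKM in caMEK1 and 17.4 in caMKK6 mCherry cells, higher than in control mCherry cells by 4.40 and 2.95 on the log2 scale. Lcn2, which the acute phase response also raises, read 445 and 98.0 FPKM against 14.3 in controls. Without caMKK6 replicate 1 in both colours each caMKK6 group on doxycycline holds 1 library, so counts are not given. Against control GFP cells on doxycycline 2 were higher in caMEK1 GFP cells and 3 in caMKK6 GFP cells, with 0 lower. There 281 and 226 of all 10371 genes were called higher.

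Zone markers moved in the same libraries. Of 12 pericentral genes 0 were higher and 9 lower in caMEK1 mCherry cells and 0 and 8 in caMKK6 mCherry cells, beside 16.3% and 9.29% of all genes called lower, and their sum was 248 to 652 and 395 to 696 FPKM against 3624 to 3800 in control mCherry cells. Of 12 periportal genes, the zone where gluconeogenesis is strongest, 2 were higher and 4 lower under caMEK1 and 3 and 1 under caMKK6, where 10.7% and 28.9% of all genes were called higher. Their summed level was 52807 to 87470 FPKM in caMEK1 mCherry cells, 25258 to 28328 in caMKK6 mCherry cells and 30565 to 30910 in controls, of which albumin is the main part. The part of zonation in the changes of the 9 genes was not tested.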

How the data were processed

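RNA from FACS-sorted hepatocytes was sequenced from 50 ng per library (RNA integrity above 8), per the labels' protocols. The authors deposited FPKM values per gene; reads were trimmed with cutadapt 1.12 and aligned with STAR 2 to mm10, per the submitters' processing notes, and the counting tool is not given in the sources used here. Multiplying FPKM by GENCODE M21 exon length and by a depth estimated for each library gave whole reads for 100% of values below 1000 reads (tolerance 0.02 reads). These estimates are the depths given above. The 668 genes without a length were left out of that step and the voom alternative.

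The filter kept a gene when 2 or more liver libraries reached 1 FPKM. All 23 liver libraries entered a limma 3.58.1 fit (R 4.3.3) of log2(FPKM + 1) on 9 group means, with a mean-variance trend and 14 residual degrees of freedom, tested on simulated data. The 14 comparisons were adjusted each over all genes by Benjamini-Hochberg at 0.05. The GFP and mCherry libraries of an animal deviated together (r 0.46 for control, 0.58 to 0.59 for caMEK1 and 0.82 for caMKK6). In groups of 2, as in control and caMKK6, deviations from the mean mirror each other, so both animals give the same r. The animal block is given beside the comparisons within animals. Libraries that share only a replicate number gave r from -0.46 to 0.43 (median 0.00 over 75 pairs). All 3 same-number pairs were above 0.1 in 2 pairs of groups, neither of which is compared here. Both pairs were above it (0.32 and 0.43) between untreated and doxycycline control GFP cells. The number block was therefore an alternative only. Replicates of a group correlated at 0.88 to 0.99 and differed by more than sampling noise (chi-square per gene 12.0 or more). Where animals contribute several libraries the unblocked p-values treat these as independent.

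The 9 genes, the pathway lists and the markers were chosen with earlier results of these data known. Named genes are all 9 members, up to 4 called genes per pathway list and comparison by size, and the 3 genes most like each member, given for 5 members; those of the others are not reported here. Alternatives covered the pseudocount, the filter, median scaling, quantile normalization, voom, blocks, other comparators and each library left out.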

Additional observations from a re-analysis of the deposited data

Results flagged for a closer look

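Levels in mCherry cells differed between caMEK1 and caMKK6 livers for 5 members, by a direct test of these groups (limma). Pck1 (-1.36), Fbp1 (-1.09), G6pc (-2.56) and Tat (-2.07) were lower in caMEK1, and Ppp1r3c (1.89) was higher, on the log2 scale. In GFP cells on doxycycline the difference was past the threshold for Tat (-2.06) and Ppp1r3c (2.45). Neither test subtracts the untreated levels of each genotype. The doxycycline dose differs in the same way as the kinase, and these cannot be told apart. No liver group has 4 or more libraries, so single libraries could not be tested for standing apart by a rule on gaps.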

How the results depend on the processing

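Of 126 member results (9 genes in 14 comparisons) 22 were called, and 6 of these kept the call in every alternative tried: Fbp1 and G6pc in caMEK1 mCherry and in caMEK1 GFP cells, Ppp1r3c in caMKK6 GFP cells against untreated cells and Tat between the kinases in mCherry cells. Number of members called, in place of the main number: for caMKK6 against control mCherry cells (2), 4 after median scaling, 1 without the filter, 1 with voom and 6 against untreated caMKK6 GFP cells; for caMEK1 against control mCherry cells (3), 5 against untreated caMEK1 GFP cells; for caMKK6 GFP cells (4), 1 against control GFP cells on doxycycline; for caMEK1 against caMKK6 mCherry cells (5), 3 after median scaling; for caMEK1 mCherry against GFP cells (1) and for doxycycline in controls (1), 0 with a pseudocount of 0.1, without the filter and under quantile normalization, and for the latter also with voom. With the animal as a replicate block these were 4 for caMEK1, 1 for caMKK6 and 1 for caMEK1 minus control. Among all genes, 2978 of 10371 were called in caMKK6 against control mCherry cells after median scaling. Without the filter 3810 of 16511 were, and with voom 3658 of 10070. With the other comparators 3728 of 10371 were called in caMKK6 mCherry, 3897 in caMEK1 mCherry and 1560 in caMKK6 GFP cells. Between the kinases in mCherry cells 1635 were called after median scaling. With the replicate number as a block, which does not pair animals, G6pc was called in the GFP difference of caMEK1 minus control (-3.04, adjusted p = 0.013; 1 call in place of 0) and in caMKK6 mCherry cells (-1.44, adjusted p = 0.037), and Ppp1r3b in caMEK1 GFP cells (-1.89, adjusted p = 0.048). Leaving out a library gave 2 to 3, 0 to 6, 3 to 5 and 1 to 7 calls in the first 4 comparisons, 0 to 2 and 0 to 0 within caMEK1 and caMKK6 animals, 4 to 6 and 0 to 5 between the kinases in mCherry and GFP cells, 0 to 0 for doxycycline in controls, and 0 to 1 and 0 to 4 for the GFP differences minus control. All but the ranges for caMEK1 GFP cells and within caMEK1 animals include fits that leave 1 library in a group. Counts from such fits rest on that library, so these ranges do not measure how stable the calls are. The share of all genes called with a library left out is not reported here. In the 4 comparisons with controls or untreated cells, signs that changed were of values not called, except Ppp1r3c in caMEK1 GFP cells (0.67 against control GFP cells on doxycycline) and Ppp1r3c in caMEK1 mCherry cells, which was 0.58 with no call and was called lower against untreated GFP cells (-1.79, adjusted p = 0.0029): Slc37a4 in caMKK6 mCherry cells was -0.31 after median scaling and -0.41 to 0.60 with libraries left out; Pck1 in caMEK1 GFP cells was 0.19 after median scaling, 0.084 under quantile normalization and -0.28 to 0.050 with libraries left out; Gys2 was 0.25 in caMEK1 mCherry and 0.16 in caMEK1 GFP cells under quantile normalization, -0.54 to 0.046 in the former and -0.15 to 1.84 in caMKK6 GFP cells with libraries left out; G6pc in caMKK6 GFP cells was 0.15 under quantile normalization, 0.19 with the number block and -0.54 to 0.36 with libraries left out; Slc37a4 in caMEK1 mCherry cells was -0.0034 to 0.33 with libraries left out. Median scaling moved the split of all calls from 2995 higher and 963 lower to 1173 and 1805 in caMKK6 mCherry cells, from 670 and 3319 to 1087 and 1731 in caMEK1 GFP cells and from 540 and 1434 to 734 and 1198 in caMKK6 GFP cells, and quantile normalization that in caMEK1 mCherry cells from 1112 and 1694 to 1490 and 1484. The causes were not tested. With 2 or 3 libraries a group, a p that misses the threshold does not show that levels are alike; for Ppp1r3c under caMKK6 the lowest library held 11 reads.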

Other observations

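In colon epithelium Pck1 ranged from 14.2 to 156 FPKM with a median of 65.1 over 23 libraries, Slc37a4 from 5.31 to 23.6, and Tat from 1.94 to 27.3, while G6pc stayed at or below 0.668 FPKM. Colon Ppp1r3b was 2.15 and 2.61 FPKM in caMEK1 mCherry cells and 3.13 to 4.97 in caMKK6 mCherry cells, against 9.85 and 20.8 in control mCherry cells. Colon Pck1 was 14.2 and 47.0 FPKM in caMEK1 mCherry cells and 24.4 to 45.2 in caMKK6 mCherry cells. Control mCherry cells read 32.8 and 156, which overlapped both. The GFP cells of the same animals read 65.1 and 121 FPKM for caMEK1 and 75.7 to 122 for caMKK6. Colon Tat was 24.9 and 27.3 FPKM in caMEK1 mCherry cells and 19.2 to 26.8 in caMKK6 mCherry cells, against 3.31 and 8.97 in control mCherry cells. None of these colon differences was tested. In 24 fibroblast libraries G6pc was listed at 0 throughout and Slc37a4 ranged from 1.36 to 3.02 FPKM.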
